A study of Mus musculus with 6 samples.

Results

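Th17 cells at day 12 were compared with day 0 CD4+ T cells, taken before activation from the same mouse line, gene by gene, on 1 Illumina bead array a side. Members were all genes whose probe was detected on the day 0 or the day 12 array, with a detection p-value below 0.01, after the 6 arrays of the time course had been normalized together. They were 10937 of the 28902 genes with a probe on the array. Of these, 9009 were detected on both arrays, 866 at day 12 only and 1062 at day 0 only.

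The mice behind all samples were 6 weeks old, of the strain given as RAG1- BW TRP-1 TCR, which lacks the recombinase RAG1 and carries a transgenic T cell receptor against TRP-1, a melanocyte protein. The day 0 sample was RNA of CD4+ T cells, and the day 12 sample RNA of cells named Th17 cells, activated with TRP-1 peptide 12 days earlier. Other arrays of the series held days 2, 4, 7 and 18, with 1 sample each. The series' design text calls the day 0 cells naive, but the array also held strong red cell signals and detected Mki67 at 9.71, Nkg7 at 11.67, Ccl5 at 12.07 and Foxp3 at 9.51 log2 units, so the sample is called day 0 here. The labels name no culture cytokines, no sort and no number of animals. With 1 array per day there was no replicate spread, so no p-value or standard error could be given, and every difference described 2 RNA samples.

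Naive CD4+ T cells circulate through lymph nodes in a quiescent state, and become effector cells after their receptor binds peptide. Th17 cells, named for interleukin 17, are an effector type of barrier tissues, and in mice they can lose interleukin 17 and take on features of Th1 cells, which make interferon gamma under the factor T-bet. Granzymes and perforin, the proteins with which cytotoxic lymphocytes kill, can also be made by CD4+ cells after repeated or prolonged stimulation.

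At day 12 granzyme genes, activation receptors, interferon gamma-induced genes and the enzymes of sterol synthesis were higher than at day 0, while haemoglobin and other red cell genes and macrophage genes were lower. "Higher" and "lower" here mean at least 2-fold with the gene detected on the brighter array, and levels are normalized log2 signals, on which 1 unit is 2-fold. Of the 10937 genes, 859 (7.85%) were higher and 926 (8.47%) lower at day 12, and 83.7% were not called. Past 4-fold there were 201 higher and 358 lower genes, past 16-fold 22 and 75, and past 32-fold 6 and 34. Where the dimmer array did not detect a gene, its detection limit of 4.88 was used and the fold is written as "at least". This was so for 132 of the higher and 359 of the lower genes, which could enter only through the array where they were bright and so had to differ.

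**Figure D1:**
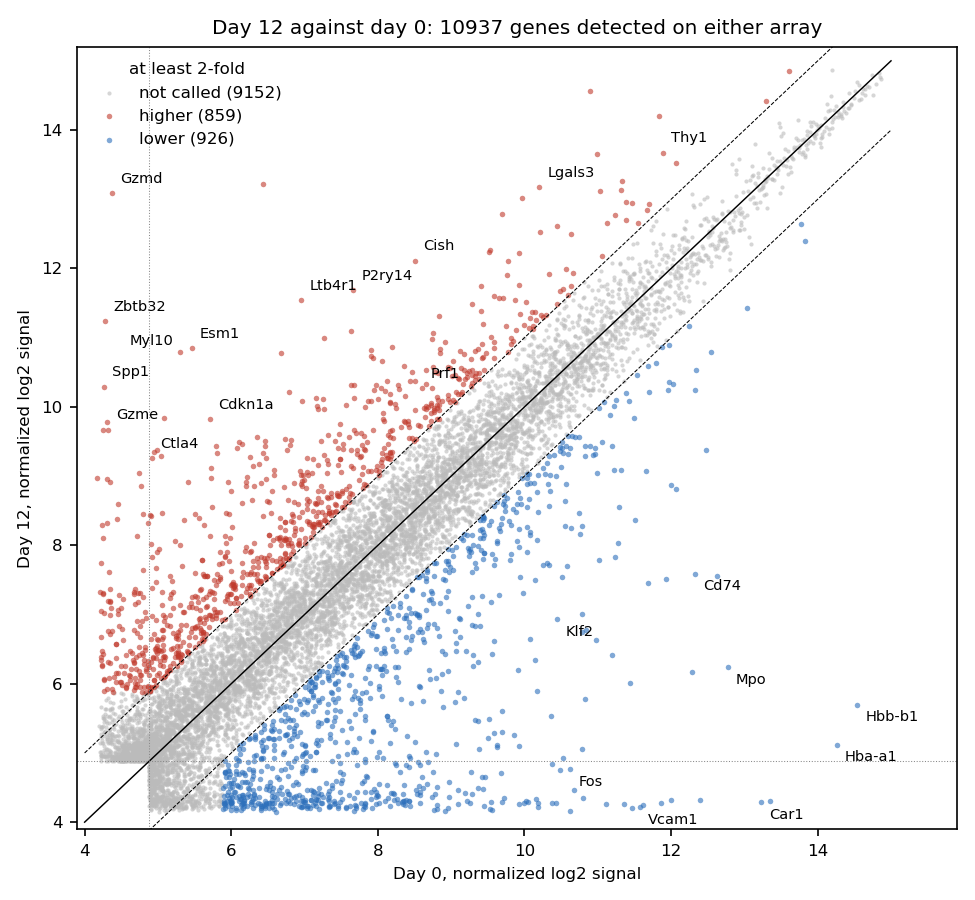
Normalized log2 signal of each of the 10937 genes at day 0 (horizontal axis) and day 12 (vertical axis), 1 array each, with 859 higher genes in red, 926 lower genes in blue and the rest in grey. The solid line marks equal signals, the dashed lines 2-fold and the dotted lines the detection limit of 4.88. Gzmd lies at 13.09 at day 12 from below the limit at day 0, and Hba-a1 and Hbb-b1 at the far right fell to 5.12 and 5.70.

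The balance of higher and lower genes depended on how the arrays were scaled to each other. Quantile normalization, used for all values here, left the median difference of all genes at 0.02 log2 units. Scaling on the median gave 618 higher and 1234 lower genes with a median of -0.17, and scaling on 14 reference genes gave 636 and 1208 with a median of -0.15. Scaling on 17 T cell identity genes, such as the CD3 chains, gave 175 higher and 6083 lower genes with a median of -1.07. That last shift comes from the list itself, whose members were higher at day 12 in 10 of 17 cases. Counts under T cell identity scaling are given beside the main ones, since 60 of the 167 higher list members kept that call under it. This scaling moves differences downward, so lower calls were bound to be kept, as by all 116 lower list members and all 926 lower genes. Where the limit of the array that missed a gene lay above the other array's signal, the difference was set to 0. A median of 0 can come from that rule.

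Markers of cell types other than T cells differed between the arrays. Erythroid and platelet markers were lower at day 12 in 17 of 19 detected members (22 on the array), with a median of -4.03, against 8.47% of all genes. Their summed linear signal was 67400 at day 0 and 708 at day 12, when 7 members were still detected. Macrophage and monocyte markers were lower in 17 of 17 detected members (22 on the array), with a median of -3.91, and their summed signal went from 16600 to 289, with 4 detected at day 12. Only 7 erythroid and 4 macrophage members were detected on both arrays, with medians of -2.13 and -3.63. The rest of these lists entered through day 0 alone and could not be higher, so their shares are no like-for-like comparison with all genes. The neutrophil list had 7 of 13 lower and 1 higher, its summed signal going from 12200 to 1070, and the list of class II antigen presentation 8 of 11 lower, from 11700 to 1690. T cell identity genes went the other way, with 10 of 17 higher, 1 lower and a median of 1.06, and a summed signal of 19900 at day 0 and 44400 at day 12. Under T cell identity scaling the first 4 lists had 19, 17, 12 and 10 lower members. The 3 other scalings moved differences downward and all 926 lower genes kept their call, so these counts could not fall. These markers' part in the other differences was not tested.

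In bulk RNA fewer cells of a type and less RNA per cell cannot be told apart, and neither can a lower proportion of RNA from T cells in the day 0 sample and a change within T cells. Cd3d, Cd3e and Cd3g, the CD3 chains of the receptor complex, were at 11.39, 10.66 and 11.13 at day 0, reaching 12.70, 11.94 and 12.65 at day 12, that is 2.49-fold, 2.43-fold and 2.86-fold higher. Cd4 was at 5.87 and 6.64, a difference under 2-fold. Cd8a was not detected by either of its probes on any array, whereas Cd8b1 was detected on both arrays, with 10.29 at day 12 and a difference of 1.22-fold on its brightest probe, while its other probes went from 8.39 to 10.32 and from 5.02 to 6.17, both past 2-fold. Of the B cell list, Ms4a1 and Pax5 were not detected on either array, but Cd79b was detected on both, at 7.33 and 7.15. In all, 6 members of that list were detected at day 0 and 1 at day 12. Rag1 was not detected on any array by its probe, whose position in the gene was not examined here, so this checks nothing about the deletion.

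**Figure D2:**
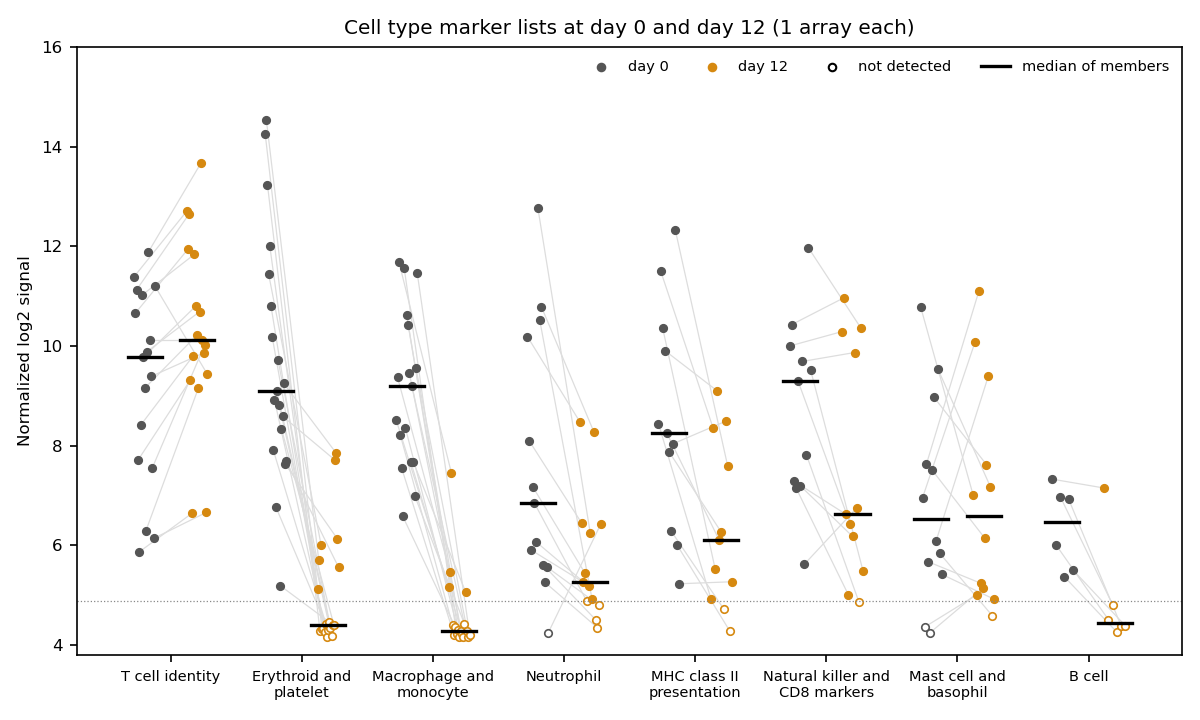
Normalized log2 signal of the detected members of 8 cell type marker lists at day 0 (grey) and day 12 (orange), 1 array each, with a line joining each gene, open circles for arrays that did not detect it and black bars for the median. Most erythroid and macrophage markers end below the detection limit (dotted) at day 12, while most T cell identity genes lie higher than at day 0.

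The genes with the largest fall were those of red cells. Hba-a1, an alpha globin, was at 14.26, 13.27, 7.88, 5.62 and 5.12 at days 0, 2, 4, 7 and 12 and undetected at day 18. It was 564-fold lower at day 12 than at day 0. Hbb-b1, a beta globin, was 458-fold lower, from 14.54 to 5.70, and 9 other probes listed under it were also detected at day 0, at 10.55 to 14.45. A probe may not tell the near-identical globin copies apart. The gene listed as ERAF, for the alpha haemoglobin-stabilizing protein, was at least 353-fold lower, from 13.35. Car1, the erythroid carbonic anhydrase, was at least 325-fold lower, Slc4a1, the anion exchanger of red cells, at least 139-fold, and Klf1, the erythroid Krüppel-like factor, at least 60.2-fold. At day 2, when Hba-a1 was still at 13.27, Car1 was at 5.79, Klf1 at 5.22 and Slc4a1 undetected. The letters AGATAA of a GATA site, which erythroid GATA1 binds, were searched on either strand of the 250 bases before the start. They were in 4 of the 12 lower members with a RefSeq promoter, against 11.4% of 27025 genes. These 4 were Epor, Alas2, Tal1 and Kel, while Hba-a1, Klf1 and Gata1 were among those without. The share among members not called was not computed, so the comparison says nothing about the fall. Of the platelet genes, Ppbp, platelet basic protein, was 2.64-fold lower, from 9.25 to 7.85, and Pf4, platelet factor 4, was at 8.59 and 7.71 and was not called.

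Tissue macrophage and iron-handling genes were next. Slc40a1, the iron exporter ferroportin, was at 12.39 at day 0 and at least 182-fold lower at day 12. Vcam1, an adhesion molecule of red pulp and marrow macrophages and of endothelium, was at least 103-fold lower, and Fcna, a ficolin of macrophages, at least 95.6-fold. The complement genes C1qb and C1qc were at least 53.1-fold and 46.6-fold lower. Spic, a factor required for red pulp macrophages, was at least 25.6-fold lower. Hmox1, haem oxygenase, was 19.6-fold lower, from 9.50 to 5.21. Monocyte lysozymes went another way over time: Lyz2 was at 9.37, 11.83, 10.35, 7.75 and 5.46 at days 0, 2, 4, 7 and 12. Mpo, myeloperoxidase, was at 12.77 and 6.24, or 92.7-fold lower, and Prtn3, proteinase 3, was 49.0-fold lower. Cd74, the invariant chain of class II molecules, was 26.7-fold lower, from 12.33 to 7.59, and H2-Eb1, a class II chain, 28.4-fold lower.

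Mast cell and basophil genes split. Cpa3, the mast cell carboxypeptidase, was at 7.63, 11.75 and 11.10 at days 0, 7 and 12, or 11-fold higher than at day 0. Cma1, chymase, was 9.97-fold higher, from 6.08 to 9.40, and Fcer1a, the alpha chain of the IgE receptor, 8.70-fold higher, from 6.96 to 10.08. Kit, the stem cell factor receptor, was 13.6-fold lower, from 10.78 to 7.01, and Gata2, a factor of mast cells and progenitors, 5.15-fold lower. The list had 3 higher and 4 lower among 12 detected members, and 3 and 7 under T cell identity scaling.

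**Figure D3:**
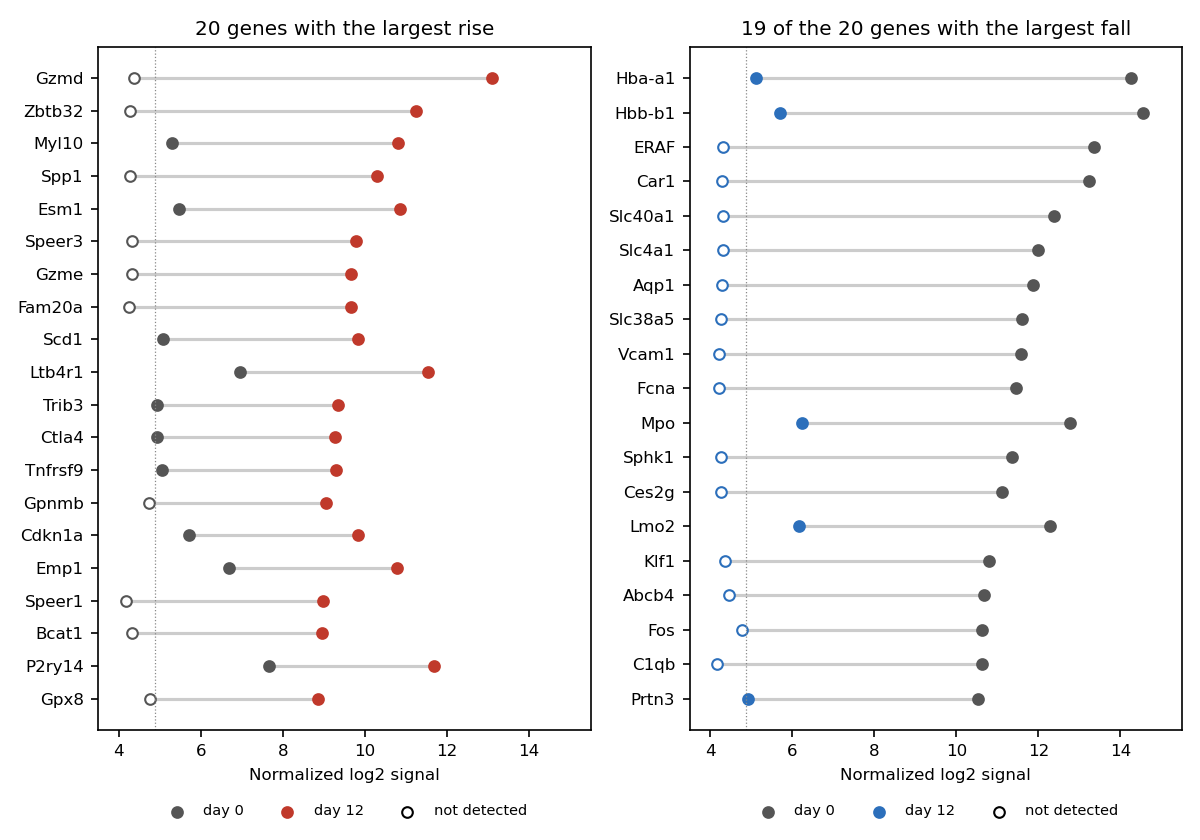
Normalized log2 signal at day 0 (grey) and day 12 (coloured), 1 array each, of the 20 genes with the largest rise (left, Gzmd first) and 19 of the 20 with the largest fall (right, Hba-a1 first), ordered by fold with undetected values (open circles) set to the detection limit (dotted). On the left 10 of the 20 genes, and on the right 14 of the 19, were undetected on the dimmer array.

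Granzymes showed the largest rise. Gzmd, a granzyme of a mouse gene cluster on chromosome 14, was not detected at day 0. On its brightest probe it lay at 6.04, 7.75, 8.62, 13.09 and 14.70 at days 2, 4, 7, 12 and 18. It was at least 297-fold higher at day 12 than at day 0, the highest of all members. Gzme, its neighbour in the cluster, was undetected through day 7, at 9.67 at day 12 and at 12.95 at day 18, or at least 27.8-fold higher. Gzmg, of the same cluster, was undetected through day 7, at 8.11 at day 12 and at 13.06 at day 18, or at least 9.42-fold higher. Gzmk, granzyme K, was 3.10-fold higher, from 5.47 to 7.11. Gzmm, granzyme M, was at 5.94 and 6.49 and was not called, and Gzmn was at 5.13, just above the detection limit, at day 12. Gzmb and Gzmc were not detected on any array by the probe carrying their name, and Gzmf was detected at day 18 only. The list had 4 of 6 detected members higher and 0 lower (9 on the array), against 7.85% of all genes, and 3 higher under T cell identity scaling. Only 2 of the 6 were detected on both arrays, with a median of 1.09 against 2.44 for the list. The rest entered through day 12 alone and could not be lower, so the share is no like-for-like comparison with all genes.

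The promoters of the 3 cluster genes that were higher at day 12 are printed because these 3 neighbours were higher together. These are the 250 bases before the annotated start, 5′ to 3′ on the minus strand of chromosome 14, from RefSeq on GRCm38.p6, at chr14:56132594-56132843 for Gzmd, chr14:56120626-56120875 for Gzme and chr14:56159580-56159829 for Gzmg. Capitals mark stretches of at least 12 bases found letter for letter in all 3.
Gzmd: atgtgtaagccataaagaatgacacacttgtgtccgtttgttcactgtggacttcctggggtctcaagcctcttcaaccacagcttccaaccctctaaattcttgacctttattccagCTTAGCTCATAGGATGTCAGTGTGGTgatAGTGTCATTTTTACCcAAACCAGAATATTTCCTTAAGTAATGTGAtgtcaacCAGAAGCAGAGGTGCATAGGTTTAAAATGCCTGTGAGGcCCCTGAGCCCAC
Gzme: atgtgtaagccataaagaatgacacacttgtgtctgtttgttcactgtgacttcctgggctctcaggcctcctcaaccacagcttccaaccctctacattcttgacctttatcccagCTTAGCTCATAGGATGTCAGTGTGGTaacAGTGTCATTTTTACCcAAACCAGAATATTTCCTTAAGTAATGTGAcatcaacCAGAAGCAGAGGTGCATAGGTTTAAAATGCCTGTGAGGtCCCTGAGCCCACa
Gzmg: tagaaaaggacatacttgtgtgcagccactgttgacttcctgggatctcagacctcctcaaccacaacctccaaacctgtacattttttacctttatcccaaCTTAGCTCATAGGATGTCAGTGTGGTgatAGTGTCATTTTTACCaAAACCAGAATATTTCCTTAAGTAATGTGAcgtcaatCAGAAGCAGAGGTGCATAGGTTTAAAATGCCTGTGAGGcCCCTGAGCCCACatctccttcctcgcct
In each, 120 of the 250 bases lay in such shared stretches. Over a global alignment, Gzmd and Gzme were identical at 95.6% of 249 aligned bases, Gzmd and Gzmg at 89.3% of 234 and Gzme and Gzmg at 91.0% of 233. The dimmer probe listed under Gzmd was at 4.27, 10.23 and 13.12 at days 0, 12 and 18, so both Gzmd probes were higher at day 12. The bases before a start are not transcribed and say nothing about the probes. Probe sequences were not used here, and whether a probe also binds a related granzyme was not tested.

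Other genes of the cytotoxic granule were higher with them. Prf1, the pore-forming protein perforin, was at 8.60, 7.25, 10.27 and 12.35 at days 0, 7, 12 and 18, or 3.18-fold higher at day 12 than at day 0. Fasl, the death ligand of Fas, was 4.42-fold higher, from 6.94 to 9.08, and Sytl2, which docks secretory granules, 6.34-fold higher, from 7.64 to 10.31. Nkg7, a granule membrane protein, was 2.26-fold higher and Rab27a, a granule transport GTPase, 2.40-fold higher. Cst7, cystatin F, an inhibitor of the proteases that process granzymes, was 4.12-fold higher. Lgmn, the lysosomal protease legumain, was at least 13.1-fold lower. The list counted 7 of its 16 detected members higher and 1 lower, its median being 0.50, but 1 higher and 5 lower and a median of -0.56 under T cell identity scaling. Natural killer and CD8 markers had 6 of 11 lower, among them Tyrobp, an adaptor also used by myeloid cells, 16.3-fold, and Klre1, a natural killer receptor, 7.37-fold, and 1 higher, Cd244a at 5.62 and 6.75, 2.20-fold. That list had 0 higher members under each of the 3 other scalings. In the plot of levels by day, Gzmd, Gzme, Gzmg and Prf1 lie higher at day 12 than on each earlier day.

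**Figure D4:**
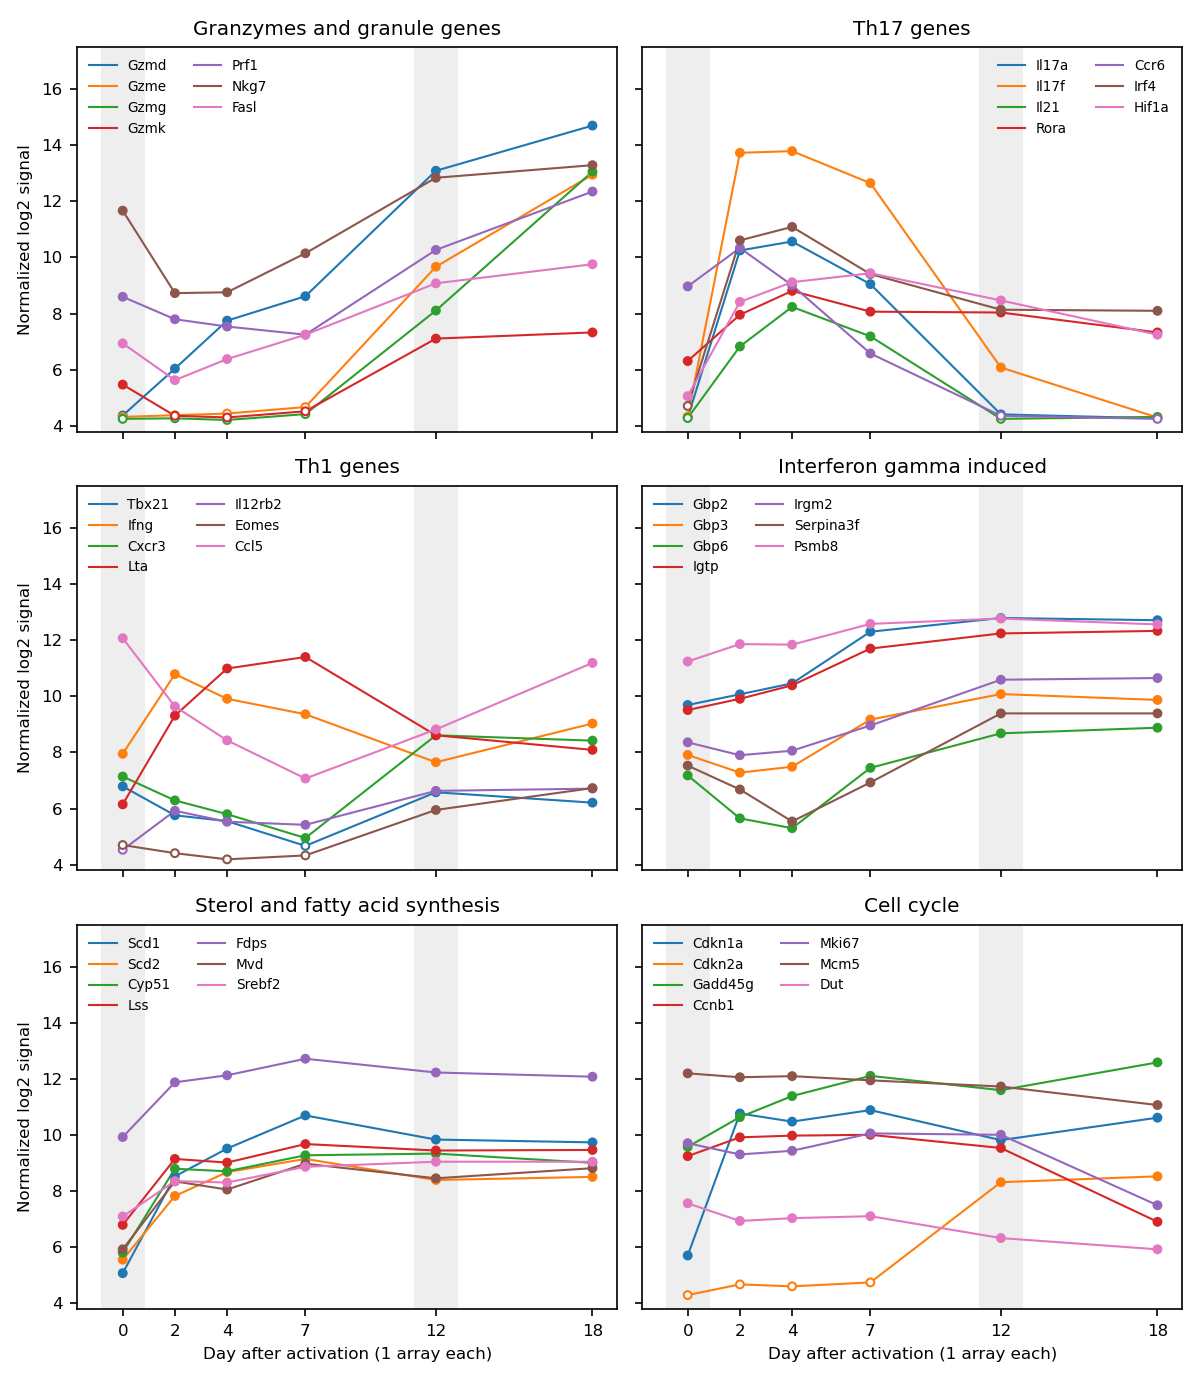
Normalized log2 signal (vertical axis) against day after activation (horizontal axis) for 7 genes of each of 6 groups, 1 array a day, with open circles where the gene was not detected and grey bands at days 0 and 12. Gzmd, Gzme and Gzmg lie highest at days 12 and 18 and Il17a and Il17f at days 2 to 7, the interferon gamma-induced genes lie higher at day 12 than at day 0, and the sterol synthesis genes are higher than at day 0 from day 2 on.

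Th17 cytokines were near or below detection at day 12. Il17a, the interleukin 17A gene, was undetected at day 0, at 10.25, 10.57 and 9.05 at days 2, 4 and 7, and undetected again at days 12 and 18. Il17f was at 13.73, 13.79 and 12.65 at days 2, 4 and 7 and at 6.08 at day 12, at least 2.30-fold above its undetected day 0 level. Il21 and Il22 were not detected at day 12. Ccr6, a chemokine receptor of Th17 cells, went from 8.97 at day 0 to undetected, at least 17.0-fold lower. The list still had 6 of 13 detected members higher and 1 lower than at day 0, namely Il12rb1 (at least 11.9-fold), Hif1a (10.6-fold), Irf4 (at least 9.64-fold), Rora (3.32-fold) and Tmem176b (2.98-fold), beside Il17f. Il12rb1 is a chain of the interleukin 12 and 23 receptors, Hif1a the hypoxia-inducible factor, Irf4 a factor induced by receptor signals and Rora a nuclear receptor. Under T cell identity scaling the list had 3 higher and 2 lower members and a median of 0.

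Th1 receptors were higher while the master regulator and the cytokine were not. Cxcr3, the receptor for interferon-induced chemokines, was at 7.14, 6.29, 5.80, 4.95, 8.61 and 8.42 at days 0, 2, 4, 7, 12 and 18, and so 2.76-fold higher at day 12 than at day 0. Il12rb2, the Th1 chain of the interleukin 12 receptor, was at least 3.38-fold higher and Lta, lymphotoxin alpha, 5.49-fold. Tbx21, which encodes T-bet, was at 6.79 and 6.58. Ifng, interferon gamma, was at 7.95 at day 0 and 7.65 at day 12, after 9.36 at day 7 and before 9.03 at day 18. Eomes, a relative of T-bet, was at least 2.10-fold higher on its brightest probe, from undetected to 5.95, but its other probe was at 5.04 and, undetected, 4.86. Ccl5, Ccl3 and Ccl4, chemokines of effector and natural killer cells, were 9.49-fold, 5.40-fold and 2.76-fold lower. The list counted 9 of its 17 detected members higher and 3 lower, its median being 1.07, which turned to 2 higher and 6 lower with a median of 0 under T cell identity scaling.

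Interferon gamma-induced genes were often higher, against an Ifng level that was not. Gbp2, a guanylate-binding protein of antimicrobial defence, was at 9.69, 12.30, 12.79 and 12.71 at days 0, 7, 12 and 18, or 8.57-fold higher at day 12. Igtp and Irgm2, immunity-related GTPases, were 6.66-fold and 4.69-fold higher, from 9.51 to 12.24 and from 8.36 to 10.59. Gbp3, of the same family as Gbp2, was 4.50-fold higher, and Serpina3f, a serine protease inhibitor, 3.61-fold higher. Psmb8, an immunoproteasome subunit, was 2.88-fold higher. Irgm1 was at 12.01 on both arrays on its brightest probe, whereas a dimmer probe was at 7.97 and 9.51. Ciita, the class II transactivator, was at least 2.16-fold lower. The list counted 10 of its 18 detected members higher and 1 lower, its median being 1.11, and 4 higher and 2 lower under T cell identity scaling. The type I interferon list had 2 of 15 higher and 2 lower, which on the higher side is 13.3% against 7.85% of all genes, and 0 higher and 2 lower with T cell identity scaling.

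Promoters were searched because members of the list moved together. The 250 bases before the start of a gene were read on both strands for GAAA-NN-GAAA, the letters of an interferon-stimulated response element, and for TTCNNNGAA, those of a STAT site, where N is any base. Of the 10 higher members, 7 had a promoter in the RefSeq table. The first motif was in 4 of these 7, Gbp2, Gbp3, Igtp and Irgm2, against 3.46% of 27025 genes, and the second in 4 of 7, Igtp, Irgm2, Serpina3f and Psmb8, against 8.13%. A gene counted where any of its listed starts held the letters. Igtp and Irgm2 share a nearly identical stretch that holds both motifs, as printed below, so their matches are not separate observations. The share among list members that were not called was not computed, so the comparison with all genes says nothing about the day 12 difference. A match is a description and no binding was measured. The 120 bases before the start, 5′ to 3′ on the plus strand of GRCm38.p6 from RefSeq, are shown with the first motif in capitals for Gbp2 (chr3:142620543-142620662), Gbp3 (chr3:142559924-142560043), Igtp (chr11:58199436-58199555) and Irgm2 (chr11:58214857-58214976).
Gbp2: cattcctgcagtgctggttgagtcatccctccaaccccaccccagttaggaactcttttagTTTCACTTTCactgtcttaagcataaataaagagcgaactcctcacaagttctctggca
Gbp3: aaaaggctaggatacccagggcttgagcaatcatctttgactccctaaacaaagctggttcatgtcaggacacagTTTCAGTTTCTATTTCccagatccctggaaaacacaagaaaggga
Igtp: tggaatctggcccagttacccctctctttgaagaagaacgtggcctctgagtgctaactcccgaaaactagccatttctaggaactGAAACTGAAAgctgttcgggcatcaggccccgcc
Irgm2: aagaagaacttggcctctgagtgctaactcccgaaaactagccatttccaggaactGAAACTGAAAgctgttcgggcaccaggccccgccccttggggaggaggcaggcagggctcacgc
The motif began 59 bases before the start in Gbp2, 34 in Igtp and 64 in Irgm2. Gbp3 held a pair of overlapping matches, which began 45 and 39 bases before the start.

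Activation genes were high 12 days after the peptide. Zbtb32, a repressor induced in activated lymphocytes, was undetected at day 0 and at 11.54, 10.93, 10.32, 11.24 and 11.72 on the following days, or at least 82.6-fold higher at day 12. Ctla4, an inhibitory receptor of activated and regulatory T cells, was at 4.92, 11.62 and 9.26 at days 0, 2 and 12, 20.2-fold higher than at day 0. Tnfrsf9, the costimulatory receptor 4-1BB, was 19.0-fold higher, from 5.04 to 9.29. Il2ra, the alpha chain of the interleukin 2 receptor, was at 4.90, 10.50 and 8.42 at days 0, 4 and 12, 11.5-fold higher than at day 0. Icos, a costimulatory receptor, was 5.21-fold higher. Cd44, which is high on memory and effector cells, was at 9.59 and 9.24 and was not called. The list had 11 of 17 higher and 1 lower, Cd86, a costimulatory ligand of antigen-presenting cells, 3.41-fold. With T cell identity scaling it had 5 higher and 4 lower.

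Targets of interleukin 2 and STAT5, the factor its receptor activates, were higher in 9 of 17 members and lower in 0, with a median of 1.32. Socs2 and Cish, feedback inhibitors of cytokine receptors, were 13.2-fold and 12.1-fold higher, from 7.27 to 11 and from 8.51 to 12.11. Ecm1, a secreted matrix protein, was 6.15-fold higher, Fgl2, a fibrinogen-like protein, 5.53-fold, and Bcl2, an inhibitor of apoptosis, 3.38-fold. Scaled on T cell identity, the list had 5 higher and 1 lower. The STAT letters were in 1 of the 6 called members with a promoter in the table, Fgl2.

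In the inhibitory receptor list the higher members were Havcr2, Lag3 and Ctla4, and the 1 lower member was Tox, a factor and not a receptor. Havcr2, which encodes Tim-3, was at 5.41, 5.16, 8.92 and 11.15 at days 0, 7, 12 and 18, or 11.4-fold higher at day 12 than at day 0, and its dimmer probe went from 5.01 to 8.26. Lag3 was 2.34-fold higher, from 6.35 to 7.58. Pdcd1, the gene of PD-1, was at 4.93 at day 12, close to the detection limit, and Btla was at 6.95 and 6.96. Tox, known from chronically stimulated T cells, was 4.19-fold lower. The list counted 3 of its 11 detected members higher and 1 lower, its median being 0.50, which was -0.15 under T cell identity scaling, with 2 higher and 4 lower.

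The higher members of the regulatory T cell list did not include its defining factor. Foxp3, the regulatory T cell factor, was at 9.51 at day 0 and 8.30 at day 12, 2.30-fold lower, and its other detected probes went from 5.85 and 5.0 to undetected. Higher members were Ctla4, Il2ra, Nt5e (7.85-fold), Tnfrsf4 (3.05-fold), Itgae (2.83-fold), Capg and Tnfrsf18, most of which activated T cells also express. Nrp1 and Gpr83, markers of regulatory T cells, were at least 5.40-fold and 3.33-fold lower. In all 7 of 10 were higher and 3 lower, and 3 and 3 under T cell identity scaling. Of the Th2 list, 2 of 8 were higher, Il24 (at least 4.64-fold) and Il10 (at least 3.91-fold), cytokines that had been at 12.52 and 8.56 at day 4, and 1 was higher and 3 lower with T cell identity scaling. Gata3, the Th2 factor, was at 7.33 and 7.02. Csf2, the cytokine GM-CSF, was at 5.46 and 5.54, and Il3, interleukin 3, was detected at days 2 and 4 only.

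Genes of naive cells split. Klf2, which keeps T cells quiescent and in circulation, was at 10.45 at day 0, undetected at days 4 and 7 and at 6.93 at day 12, 11.5-fold lower than at day 0. Il6ra, the interleukin 6 receptor needed to start Th17 cells, was 6.21-fold lower, and its partner Il6st at least 2.68-fold lower. Ccr7, the lymph node homing receptor, was at 6.79 and 6.74, Tcf7, a factor of naive and memory cells, at 7.95 and 8.42, and Il7r, the interleukin 7 receptor, at 10.11 and 10.71. Lef1, a partner of Tcf7, was 3.77-fold higher, and Ly6c1, a surface protein of naive and memory cells, 3.62-fold. The list had 6 of 22 lower and 2 higher and 11 lower and 0 higher under T cell identity scaling. Its median of 0.07 turned to -0.21 under median scaling, -0.19 under reference gene scaling and -1.11 under T cell identity scaling. Of the 22 detected, 14 were not called.

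Adhesion and guidance receptors changed gene by gene. Ltb4r1, the leukotriene B4 receptor, was at 6.95, 12.52 and 11.54 at days 0, 7 and 12, or 24.1-fold higher. Ccr2, a receptor of inflammatory cells, was 3.42-fold higher and Gpr183, an oxysterol receptor that guides lymphocytes, 2.72-fold. Cx3cr1, the fractalkine receptor, was at least 3.48-fold lower. Chemokine receptors had 6 of 15 higher and 4 lower, but 2 and 8 under T cell identity scaling. Among integrins and adhesion genes 4 of 16 were higher and 2 lower, with Itgal, the alpha chain of LFA-1, 4.08-fold higher and Itgb7 2.28-fold, and 0 higher and 7 lower under T cell identity scaling. Chemokine genes had 5 of 9 lower and 0 higher, led by Xcl1, lymphotactin, 19.5-fold lower from 9.58 to 5.29, and 8 lower with T cell identity scaling.

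Ligands and receptors of the tumour necrosis factor family were higher in 9 of 16 members and lower in 1. Tnfsf13b, the B cell survival factor BAFF, was at least 11.4-fold higher, from undetected to 8.38, and Tnfsf11, the RANK ligand, at least 4.46-fold. Tnf itself was 2.26-fold higher, from 6.24 to 7.42, after 9.76 at day 7. Tnfrsf25, the DR3 receptor, was 2.02-fold lower on its brightest probe. The list's median of 1.09 turned to -0.09 under T cell identity scaling, with 3 higher and 2 lower.

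Secreted and cytoskeletal proteins were prominent. Spp1, osteopontin, was undetected at day 0, at 9.15, 8.34 and 7.58 at days 2, 4 and 7, at 10.29 at day 12 and at 12.77 at day 18, and so at least 42.6-fold higher at day 12. Esm1, a secreted proteoglycan known from endothelium, was 41.9-fold higher, from 5.46 to 10.85. Lgals3 and Lgals1, the galectins 3 and 1, were 7.83-fold and 6.30-fold higher. Tgfbi, a matrix protein, and Timp2, a metalloproteinase inhibitor, were at least 12.9-fold and 9.80-fold lower. Secreted and matrix genes had 6 of 13 higher and 2 lower, and 5 and 5 after T cell identity scaling. Myl10, a myosin light chain, was at 5.30, 5.41, 8.42 and 10.80 at days 0, 4, 7 and 12, 45.4-fold higher. Tubb6, a beta tubulin, was 10.1-fold higher, Vim, vimentin, 6.66-fold, S100a6 3.91-fold, Anxa2, annexin A2, 3.54-fold and S100a4 3.32-fold. The list of S100 proteins, annexins and cytoskeleton counted 13 of its 18 detected members higher and 0 lower, its median being 1.26, and 3 higher and 1 lower under T cell identity scaling.

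**Figure D5:**
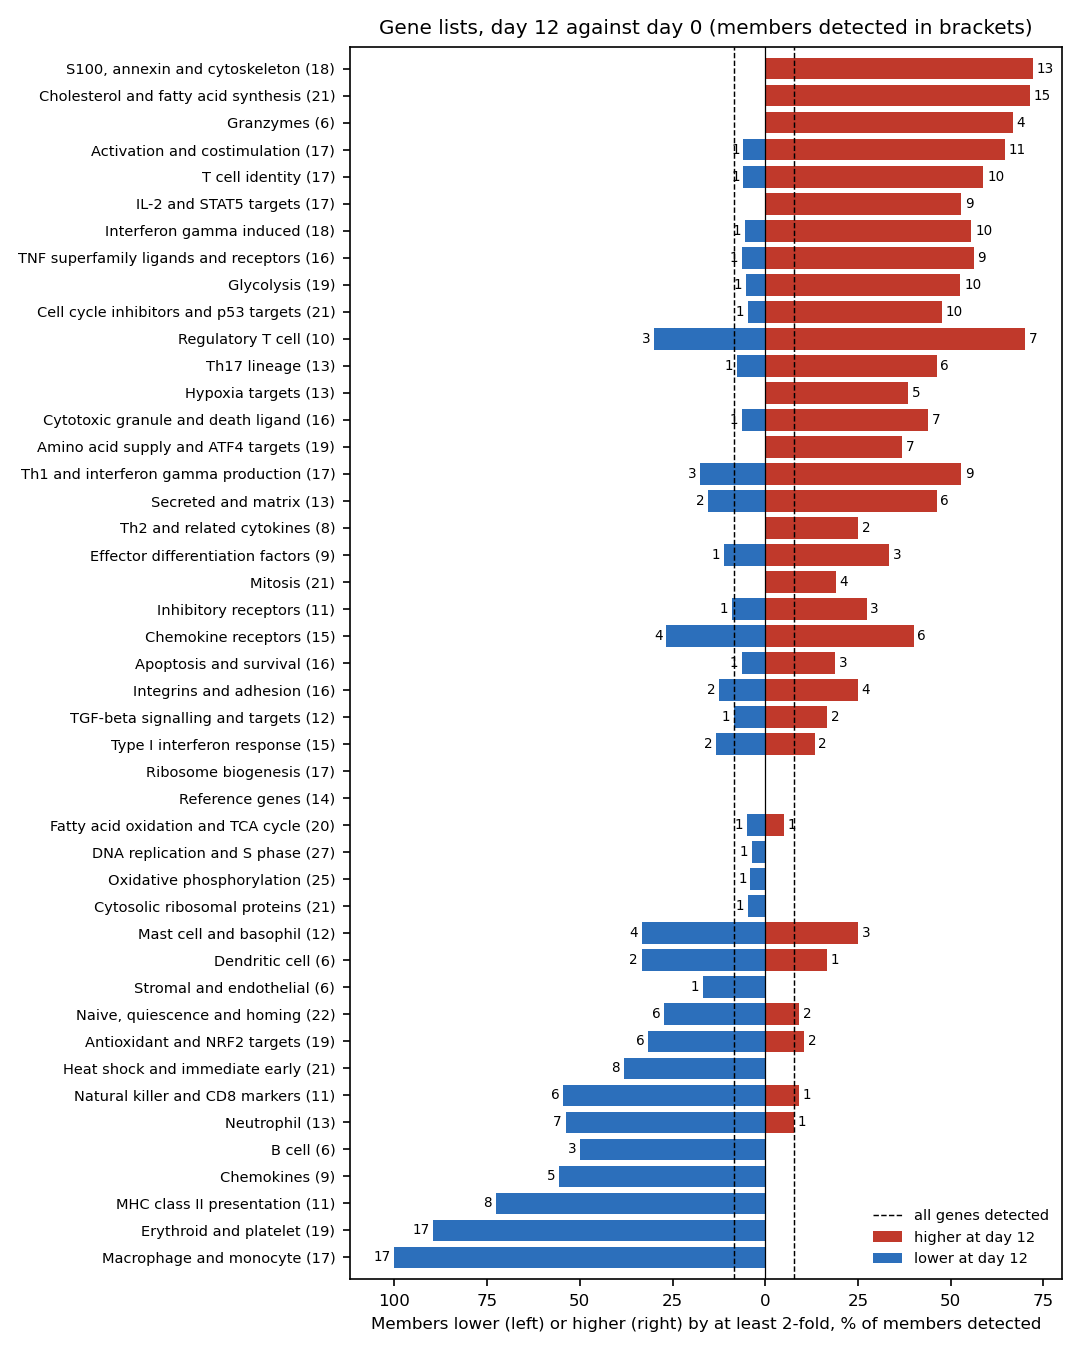
Share of detected members of each of 45 gene lists that were higher (red, right) or lower (blue, left) by at least 2-fold at day 12 than at day 0, in percent, with the number of such members at each bar and the number detected in brackets. The dashed lines mark 7.85% and 8.47%, the shares over all 10937 genes. The lists with the largest share lower are macrophage (17 of 17) and erythroid (17 of 19) genes, and those with the largest share higher include S100 and annexin (13 of 18) and sterol synthesis (15 of 21) genes.

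Sterol and fatty acid synthesis genes were higher in 15 of 21 members and lower in 0, with a median of 1.88 log2 units. Scd1, the stearoyl-CoA desaturase, was at 5.08 at day 0, 8.53, 9.52 and 10.70 at days 2, 4 and 7, 9.84 at day 12 and 9.74 at day 18, which was 27.1-fold higher at day 12 than at day 0. Cyp51 and Lss, enzymes of the lanosterol step, were 11.6-fold and 6.28-fold higher, from 5.81 to 9.34 and from 6.80 to 9.45. Scd2, a second desaturase, was 7.18-fold higher, Mvd, of the mevalonate pathway, 5.76-fold and Fdps, farnesyl diphosphate synthase, 4.93-fold. Srebf2, the factor that drives this pathway, was 3.86-fold higher, from 7.10 to 9.05. Acly, which supplies acetyl-CoA, was at 11.45 and 11.53 and Fads1, a fatty acid desaturase, at 10.37 and 10.64. Under T cell identity scaling 7 members were higher and 0 lower. The letters TCACNCCAC of a sterol response element were in 0 of the 8 higher members with a promoter in the table, against 1.22% of genes, which says only that these letters were not in those windows.

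Glycolysis genes were higher in 10 of 19 members and lower in 1. Pfkp, the platelet-type phosphofructokinase, was 7.86-fold higher, from 7.16 to 10.13, Aldoc, aldolase C, 7.60-fold, Eno1, enolase, 5.05-fold, and Pkm, pyruvate kinase, 4.98-fold. Slc2a1, the glucose transporter GLUT1, was at 8.10, 11.92 and 10.23 at days 0, 2 and 12. Pfkm, the muscle-type phosphofructokinase, was 3.79-fold lower on its brightest probe, while its dimmest probe was at 5.15 and 4.90. The glycolysis median of 1.04 became 0 under T cell identity scaling, with 4 higher and 4 lower. Hypoxia targets had 5 of 13 higher and 0 lower, with the prolyl hydroxylase Egln3 8.06-fold higher and Ddit4, an mTOR inhibitor, 5.10-fold. Their median was 0.72, and 0 under T cell identity scaling, with 2 higher and 2 lower.

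Amino acid supply and ATF4 targets had 7 of 19 higher and 0 lower, and 2 each way after T cell identity scaling. Trib3, a pseudokinase induced by amino acid shortage, was 21.3-fold higher, from 4.94 to 9.35, and Chac1, which degrades glutathione, at least 10.7-fold. Phgdh and Psat1, of serine synthesis, were 3.81-fold and 2.44-fold higher, and Mthfd2, of mitochondrial folate metabolism, 3.39-fold. Asns, asparagine synthetase, was at 10.77 and 10.80. Of the mitochondrial lists, oxidative phosphorylation had 1 lower of 25 (4.0%), Ndufa4, and 0 higher. Fatty acid oxidation and the citrate cycle had 1 each way of 20 (5.0%). These were Acadl, a long-chain acyl-CoA dehydrogenase, 3.93-fold higher and Dlst 2.20-fold lower. Such counts lie near the shares over all genes, 7.85% higher and 8.47% lower. The medians of these mitochondrial lists were -0.14 and -0.32 log2 units. Under T cell identity scaling they were -1.10 and -1.33, with 20 and 17 members lower and 0 higher. Ribosome biogenesis had 0 of 17 called either way, but 15 lower and a median of -1.26 once scaled on T cell identity.

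Cell cycle genes were expressed on both days. The proliferation marker Mki67 was at 9.71, 10.06, 10.01 and 7.50 at days 0, 7, 12 and 18. Of 21 mitosis genes 4 were higher and 0 lower than at day 0, their median being 0.65, led by Cenpf, a kinetochore protein, at least 3.15-fold, and Top2a, topoisomerase II alpha, 2.67-fold; under T cell identity scaling 0 were called and the median was -0.40. Of the same 21 genes, 20 were higher at day 12 than at day 18, against 2.63% of all genes in that comparison, which shares the day 12 array. S phase genes had 0 of 27 higher and 1 lower, Dut, dUTPase, 2.35-fold on its brightest probe, and Mcm5, of the replicative helicase, was at 12.20 and 11.73. Under T cell identity scaling 20 of the 27 were lower. Erythroid precursors also divide, and which cells carried these transcripts at day 0 was not tested.

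Inhibitors of the cell cycle were higher beside them. Cdkn1a, which encodes p21, was at 5.71, 10.77 and 9.82 at days 0, 2 and 12, or 17.3-fold higher. Cdkn2a, the p16 and p19ARF locus, was undetected at days 0, 2, 4 and 7 and at 8.32 and 8.53 at days 12 and 18, at least 10.9-fold higher at day 12. A second of its 3 probes went from undetected to 8.31 at day 12 and the third was undetected on both arrays. Phlda3, Gadd45g, Zmat3 and Trp53inp1, induced by p53 or stress, were 4.25-fold, 4.06-fold, 3.77-fold and 3.46-fold higher. Gadd45a was 7.85-fold lower, from 8.86 to 5.89. The list counted 10 of its 21 detected members higher and 1 lower, its median being 0.98, and 3 higher and 6 lower under T cell identity scaling.

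Several immediate early genes, which respond within minutes to stimulation or handling, were lower. Fos was at 10.62 at day 0 and undetected at day 12, at least 53.3-fold lower, and Fosb at least 6.92-fold. Dusp1, a phosphatase of MAP kinases, was 9.37-fold lower, from 11.02 to 7.79, Zfp36, which destabilizes cytokine mRNA, 6.65-fold, and Junb 5.25-fold. The list of heat shock and immediate early genes had 8 of 21 lower and 0 higher, and 14 lower after T cell identity scaling. Jun, Jund and Ier3, also immediate early genes, were not called, at 7.04 and 6.21, 6.51 and 7.08, and 8.69 and 9.40, and Atf3 went from undetected to 5.15, also not called. Its chaperones, such as Hspa8 at 13.12 and 13.35, were not called, apart from Hspa1a, at least 2.41-fold lower. Gpx1 and Prdx2, peroxidases abundant in red cells, were 2.71-fold and 3.03-fold lower.

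Further genes among the 20 with the largest rise were of mixed function. Fam20a, a secretory pathway pseudokinase, was at least 27.6-fold higher, Emp1, a membrane protein, 17.2-fold, P2ry14, a receptor for UDP-glucose, 16.3-fold, Gpnmb, a transmembrane glycoprotein, at least 17.9-fold and Bcat1, which transaminates branched-chain amino acids, at least 16.9-fold. Gpx8, a peroxidase of the endoplasmic reticulum, was at least 15.7-fold higher. Speer3 and Speer1, members of a multigene family of the mouse germ line, were at least 29.9-fold and 17.1-fold higher, and their probes may bind several copies. Among the 20 with the largest fall, Aqp1, a water channel of red cells, was at least 125-fold lower and Slc38a5, an amino acid transporter, at least 106-fold. Sphk1, sphingosine kinase 1, was at 11.36, 7.83, 7.39 and 5.65 at days 0, 2, 4 and 7 and undetected after that. Lmo2, a haematopoietic transcription regulator, was 69.8-fold lower, from 12.29 to 6.17, Abcb4, a lipid transporter, at least 55.2-fold, and Ces2g, a carboxylesterase, at least 74.8-fold.

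Few genes set day 12 apart from both of its neighbours in time. Against day 7, 2.6% of genes were higher and 3.31% lower at day 12, and against day 18, 2.63% were higher and 1.52% lower. These comparisons share the day 12 array with each other and with that against day 0. Past 2-fold, 2 genes were higher at day 12 than on both neighbouring days, Trat1 and Prss34. Trat1, an adaptor of the T cell receptor complex, was at 7.60, 10.03 and 8.14 at days 7, 12 and 18. Prss34, a basophil protease, was at 6.28, 7.62 and 5.26 on those days, but at 8.97 at day 0, and so 2.55-fold lower at day 12 than at day 0. Another 11 genes were lower than on both neighbours, among them Ifng, at 9.36, 7.65 and 9.03, Junb, at 10.52, 8.25 and 9.31, and Rgs1, a regulator of G protein signalling, at 11.57, 9.64 and 10.71.

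Against day 2, 7.52% of genes were higher and 6.91% lower at day 12, and against day 4, 6.12% and 5.09%, again with the day 12 array shared. Genes at least 2-fold higher at day 12 than on each of days 0, 2, 4 and 7 were led by Gzme, Gzmd, Cdkn2a, Gzmg and Havcr2. Tnfrsf11b, the decoy receptor osteoprotegerin, was undetected at days 0 and 2, at 5.06 and 5.10 at days 4 and 7, and at 7.75 at day 12. Gpr34, a lysophospholipid receptor, was at 6.31, 5.70 and 8.85 at days 0, 7 and 12. In the other direction, Dbndd2 was between 8.70 and 8.90 through day 7 and at 6.20 at day 12, Hmgn3, a nucleosome-binding protein, was at 8.80, 9.39, 9.32, 8.96 and 6.81 at days 0, 2, 4, 7 and 12, and Clec4n, the myeloid lectin dectin-2, went from 10.38 at day 2 to undetected at day 12.

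How far a difference can be trusted rests on the probes, since no array was repeated. In 2720 genes with a pair of probes detected on both arrays, the day 12 to day 0 differences of the pair disagreed with an SD of 0.413 log2 units. Of 323 pairs whose brighter probe was past 2-fold, the dimmer one moved the same way in 303 and was itself past 2-fold in 207, and it passed 2-fold in the other direction in 0. Cd247, the zeta chain of the receptor complex, was an exception among named genes, 3.05-fold higher on its brightest probe but at 7.38 and 7.00 on the next. Agreement between probes covers the probes, not the spread between cultures or animals.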

How the data were processed

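Members and gene lists were chosen with earlier results of these data known. RNA of 6 samples, 1 per day, was measured on Illumina bead arrays of 45281 probes. Per the labels, Trizol extraction and a DNase column step came before biotin labelling under a MouseRef-8 protocol. The deposited intensity of each probe was exported without normalization, per the file headers. The deposited detection p-value comes from the same export, which does not say how it was derived. Normalized intensities that the authors deposited, by a method not given in the sources used here, served as an alternative. The deposited intensities were background-corrected and quantile-normalized over all 6 arrays with limma 3.58.1 (neqc, offset 16) in R 4.3.3 and put on the log2 scale. Between 30.2% and 31.5% of probes were detected on each array.

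A gene was represented by its brightest probe. Names were updated through RefSeq: of 30854 distinct names, 16223 matched a symbol and 5679 a synonym, and 8925 were kept as deposited. Named are the 20 highest and 20 lowest genes, up to 6 members of each list with the largest difference, members needed to say what the rest of a list did, preset key genes, and up to 10 genes each way that set day 12 apart from other days. Some genes that this rule names are not reported here. The counting was tested on simulated data. With 1 array per day no test was possible. The number of arrays limits the precision. The promoter alignment used Biopython 1.88.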

Additional observations from a re-analysis of the deposited data

How the results depend on the processing

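No paired analysis was possible because each day had 1 array, and all values rest on a single array a side. Beside the main 859 higher and 926 lower genes, scaling on T cell identity genes gave 175 and 6083, no background correction 430 and 508, and a limit to genes detected on both arrays 727 and 567. The last leaves out genes by construction, and the cause of the second was not tested. With 1 of the other 4 arrays left out of the normalization in turn, 855 to 878 were higher and 921 to 933 lower. The deposited normalized values gave 857 and 926. On every array they had the same median of 3.1 and lowest value of -12.4, and a Spearman correlation of 1.0 with the signal. Their close counts are therefore no independent check. Of 45 list medians, 14 changed sign and 7 came to 0 under T cell identity scaling. A median of 0 can come from differences set to 0 by the detection limit and need not be a measured lack of change. Among medians past 1 log2 unit, T cell identity itself turned to -0.01, by construction, and the TNF superfamily to -0.09. Among the 20 highest, the 20 lowest, preset key genes and those that set day 12 apart, 68 genes were called. Under each alternative 64 or more kept their call, except 37 among genes detected on both arrays, and 0 changed direction. Most of these had been picked for large differences in the same values, so few could lose their call. Over all genes, 175 of 859 higher and 926 of 926 lower genes kept it under T cell identity scaling. Without background correction 430 and 508 did. Over all gene lists, 60 of 167 higher members kept their call under T cell identity scaling. All 116 lower members did too, which that downward shift made certain. Genes near the detection limit of 4.88 have only a bound.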

Other observations

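Other gene groups had the following counts, beside 7.85% higher and 8.47% lower among all genes. Among effector differentiation factors 3 of 9 were higher and 1 lower at day 12. Hopx, a homeodomain protein of effector and memory T cells, was 3.68-fold higher on its brightest probe. Another Hopx probe, close to the detection limit, was at 4.9 and 4.89. Bhlhe40, a factor of cytokine production, went from 8.23 to 10.04, and Zeb2, a factor of terminal effectors and myeloid cells, was at least 7.76-fold lower. Under T cell identity scaling 0 were higher and 5 lower. Apoptosis genes had 3 of 16 higher and 1 lower, with Traf1, a signal adaptor, 2.51-fold higher and Bid, which carries death signals to mitochondria, 3.64-fold lower, and 0 and 6 under T cell identity scaling. Mcl1, a survival protein, was at 10.28 and 10.27.

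Among TGF-beta genes 2 of 12 were higher and 1 lower, with Rgs16, a regulator of G protein signalling, at least 5.65-fold higher and the receptor Tgfbr2 at 10.57 and 11.46. Antioxidant genes had 2 of 19 higher and 6 lower, and Srxn1, sulfiredoxin, was 3.03-fold higher while Gclm, of glutathione synthesis, was 3.83-fold lower. Ribosomal protein genes had 1 of 21 lower, Rpl22, and reference genes 0 of 14 called. Of the sparse marker lists, B cell genes had 3 of 6 lower, of which Vpreb1 and Igll1, parts of the precursor B cell receptor, were at least 4.26-fold and 4.12-fold lower. Dendritic cell genes had 2 of 6 lower and Batf3, which activated T cells also express, 2.87-fold higher, and stromal genes 1 of 6 lower, Igfbp7. Several of these shares lay near those of all genes, such as 8.33% lower for TGF-beta genes, 10.5% higher for antioxidant genes and 4.76% lower for ribosomal protein genes. With T cell identity scaling, 1 TGF-beta gene was higher and 3 were lower. Members of the antioxidant, ribosomal protein, reference, B cell, dendritic cell and stromal lists were then higher in 0 cases and lower in 12, 18, 5, 6, 3 and 6.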
